A study of Mus musculus with 2 samples.

Results

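Chemokine ligands are small secreted proteins that draw leukocytes along a gradient, and 10 of their genes were followed in sorted immune cells of the mouse cecum: Ccl2, Ccl3, Ccl4, Ccl5, Ccl6, Ccl9, Ccl20, Ccl22, Cxcl1 and Cxcl2. The genes were taken by name, and all 10 were found among the 55487 gene symbols of the expression table. By its title, the study sits within a chemogenetic screen and links nociceptors that express Trpv1, the heat and capsaicin channel of pain fibres, with gut regulatory T cells. Cells positive for CD45, the surface protein of blood-derived cells, were sorted from 2 Trpv1-ADC and 2 CTRL male mice aged 101 days and read in 1 droplet run. The treatment label, shared by all 4 mice, names AAV (a viral vector) injected into the peritoneum of newborns and CNO, a ligand of designer receptors, given 7 times on alternate days. Strain labels list Trpv1-WT.B6 together with Trpv1-Cre.B6 and assign neither to a given mouse, so strain and group cannot be told apart. The labels do not spell out what ADC stands for, the promoter of the vector or the receptor it carries. Each mouse carried its own hashtag, an antibody with a DNA code, and values below are per mouse.

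Chemokines signal through receptors that couple to G proteins, and each ligand draws the cells that carry its receptor. Ccl2 acts on Ccr2 of monocytes, and mouse Ccl6 and Ccl9 act on Ccr1. Cxcl1 and Cxcl2 act on Cxcr2 of neutrophils, Ccl20 on Ccr6 of type 17 lymphocytes and B cells, and Ccl22 on Ccr4 of regulatory and type 2 T cells. Macrophages and stromal cells make several of them within hours of an inflammatory stimulus through the transcription factor NF-kB, while cytotoxic lymphocytes keep Ccl5 messenger RNA in store.

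The genes lie in a few clusters of the genome, and the DNA just before 5 of them is shown for what neighbours share. On GRCm38, 6 members are on chromosome 11, at 8.77 Mb (Ccl2) to 10.4 Mb (Ccl3 and Ccl4) from the Trpv1 gene itself at chr11:73234292-73261242. Of those 6, 5 lie within 139 kb, and Cxcl1 and Cxcl2 lie 10.8 kb apart on chromosome 5. RefSeq promoters of the same build were matched for 7 members and not used for Ccl2, Ccl4 and Ccl5. Each line gives the 120 bases before the start of transcription, 5′ to 3′ on the strand of the gene. Capitals mark a match to the NF-kB consensus on either strand.
Cxcl1: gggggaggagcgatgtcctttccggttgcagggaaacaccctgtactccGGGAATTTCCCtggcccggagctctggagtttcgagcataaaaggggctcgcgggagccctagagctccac
Cxcl2: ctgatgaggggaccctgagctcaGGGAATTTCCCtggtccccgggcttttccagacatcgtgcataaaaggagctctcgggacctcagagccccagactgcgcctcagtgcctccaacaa
Ccl20: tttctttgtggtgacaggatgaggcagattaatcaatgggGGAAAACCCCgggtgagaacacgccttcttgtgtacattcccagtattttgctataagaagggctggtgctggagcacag
Ccl9: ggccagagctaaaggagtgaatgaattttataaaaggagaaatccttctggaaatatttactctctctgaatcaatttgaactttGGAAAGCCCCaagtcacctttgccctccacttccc
Ccl6: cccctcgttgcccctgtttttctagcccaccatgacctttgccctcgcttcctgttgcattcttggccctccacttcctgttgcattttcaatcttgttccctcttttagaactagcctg

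These stretches are at chr5:90891125-90891244 and chr5:90903779-90903898 on the forward strand for Cxcl1 and Cxcl2, at chr1:83116646-83116765 on the forward strand for Ccl20, and at chr11:83578637-83578756 and chr11:83593088-83593207 on the reverse strand for Ccl9 and Ccl6. The NF-kB consensus was in the 250 bases before the start of 4 of the 7 members searched (Cxcl1, Cxcl2, Ccl20 and Ccl9) and of 2382 of 32851 RefSeq promoters (7.25%). Its form GGGAATTTCC stood 71 to 62 bases before the start of Cxcl1 and 97 to 88 bases before that of Cxcl2. That form was in 28 promoters in all (0.0852%), and it overlaps a match on the other strand because it is nearly a palindrome. The longest run that Cxcl1 and Cxcl2 shared was the 14 bases gggaatttccctgg, which holds that match. Ccl6 and Ccl9 shared the 13 bases gccctccacttcc, while no other pair of the 7 shared more than 10. The AP-1 motif TGANTCA and the motif TATAAA each matched 1 of the 7 members, Ccl9, against 6.75% and 12.4% of all promoters. These are matches of letters, and binding was not measured.

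The cells kept numbered 4430 and 4531 in the Trpv1-ADC mice and 4393 and 4165 in the CTRL mice, with 27586172 and 29645678 UMIs (counted molecules) in the Trpv1-ADC mice and 29905834 and 27998012 in the CTRL mice, and median depths of 5553 to 5689 UMIs per cell. All barcodes of the hashtag library were in the expression library. Cells were grouped by expression without any chemokine ligand gene, and 23 classes were named "like" a cell type from marker genes, of which 16 had at least 20 cells in every mouse. Fibroblast-like cells (95 to 197 per mouse) and a few epithelial cell-like cells (1 to 22) were among them although the sort was for CD45. Levels are UMIs of a gene as counts per 1e6 UMIs of that class in that mouse (CPM), and fewer cells of a type and less RNA per cell cannot be told apart in sums over all cells.

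Ccl5, which draws T cells and other leukocytes, was a transcript of cytotoxic lymphocytes. Its levels were 3906 and 5434 CPM in intraepithelial-type T cell-like cells of the Trpv1-ADC mice and 4903 and 5862 CPM in those of the CTRL mice. CD8 T cell-like cells had 3834 and 3753 CPM in the Trpv1-ADC mice and 4678 and 3649 CPM in the CTRL mice. Both ranges overlapped, and NK or ILC1-like cells came next at a mean of 2427 CPM over the 4 mice. Of all Ccl5 UMIs, 48.6% came from intraepithelial-type, 31.8% from CD8 and 9.11% from NK or ILC1-like cells. Within the intraepithelial-type class, cluster T8 had 10700 to 13670 CPM and cluster T4 had 1343 to 1657 CPM in every mouse. After thinning to 2000 UMIs, 71.4% to 79.1% of intraepithelial-type cells had a Ccl5 UMI, against 2.95% to 5.08% of B cell-like cells, which should lack the gene. Without thinning the shares were 78.9% to 85.6% and 6.51% to 9.24%, at median depths of 4921 to 5209 and 4265 to 4430 UMIs. Thinning left out 113 and 70 shallower cells of the Trpv1-ADC mice and 261 and 157 of the CTRL mice.

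Ccl3 and Ccl4, inflammatory chemokines whose genes are neighbours on chromosome 11, were spread over several classes. Among these were macrophage-like, NK or ILC1-like, intraepithelial-type and monocyte-like cells. Intraepithelial-type cells held 14.1% of Ccl3 and 16.4% of Ccl4 UMIs. Among tested classes Ccl3 was highest in macrophage-like cells, at 186 and 184 CPM in the Trpv1-ADC mice and 199 and 166 CPM in the CTRL mice. Among tested classes Ccl4 was highest in NK or ILC1-like cells, at 1077 and 575 CPM in the Trpv1-ADC mice and 641 and 624 CPM in the CTRL mice. The Ccl4 range of NK or ILC1-like cells lay above that of macrophage-like cells (365 to 543 CPM), and the Ccl4 ranges of macrophage-like and cDC1-like cells overlapped. Outside the tested classes, Ccl3 had 253 to 1757 CPM in 15 to 42 neutrophil-like cells per mouse, and Ccl4 had 271 to 2731 CPM in 3 to 8 mast cell-like cells per mouse. Cells with a Ccl3 UMI held a Ccl4 UMI more often than the rest, after thinning to 2000 UMIs. In NK or ILC1-like cells the shares with Ccl4 were 54.2% and 50% of Ccl3+ cells in the Trpv1-ADC mice and 64.0% and 81.2% in the CTRL mice. Among cells without Ccl3 they were 19.5% and 19.8% in the Trpv1-ADC mice and 15.5% and 20.2% in the CTRL mice. The order was the same in each mouse in intraepithelial-type and monocyte-like cells, and in macrophage-like cells of the 3 mice with enough Ccl3+ cells.

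Ccl2, the monocyte attractant, was highest in macrophage-like cells and lower in monocyte-like cells (145 to 220 CPM) and fibroblast-like cells (65.6 to 262 CPM), whose ranges overlapped. Macrophage-like cells held 35.3% of Ccl2 UMIs, and cells in no named class held 19.3%. Among tested classes Ccl6 and Ccl9, 2 neighbouring genes found in rodents, were highest in the mononuclear phagocytes. In macrophage-like cells Ccl6 had 2217 and 2352 CPM in the Trpv1-ADC mice and 2000 and 1801 CPM in the CTRL mice. Ccl9 had 742 and 661 CPM in the Trpv1-ADC mice and 840 and 740 CPM in the CTRL mice. For both genes the macrophage-like range lay above the monocyte-like one, and that above the cDC2-like one. Ccl6 ran from 754 to 910 CPM in monocyte-like and from 92.3 to 390.2 CPM in cDC2-like cells. Outside the tested classes, Ccl6 had 1008 to 1604 CPM in 15 to 42 neutrophil-like cells per mouse, between its monocyte-like and macrophage-like ranges. Macrophage-like cells held 53.7% of Ccl6 and 49.8% of Ccl9 UMIs. Among macrophage-like cells with a Ccl6 UMI, 61.2% and 77.3% in the Trpv1-ADC mice and 73.8% and 67.9% in the CTRL mice also had Ccl9. Among those without one, the shares were 33.3% and 5.0% in the Trpv1-ADC mice and 21.1% and 20.8% in the CTRL mice. E230016K23Rik overlaps Ccl6 on the other strand, and the strand setting of the counting is not given in the sources used here.

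Cxcl1 and Cxcl2, which draw neutrophils, had different sources despite their shared promoter stretch. Cxcl1 was highest in fibroblast-like cells, which held 65.5% of its UMIs, and its next level, in macrophage-like cells, did not overlap (29.8 to 106 CPM). Cxcl2 was highest in neutrophil-like cells, at 8652 and 7570 CPM in the Trpv1-ADC mice and 11140 and 7168 CPM in the CTRL mice, a class with too few cells to test. Its ranges in macrophage-like (509 to 2584 CPM) and monocyte-like cells (998 to 1414 CPM) overlapped, and those 2 classes held 28.6% and 15.9% of its UMIs. In fibroblast-like cells Cxcl2 was in 5.88% and 5.88% of Cxcl1+ cells in the Trpv1-ADC mice and in 16.7% and 7.14% in the CTRL mice. Cells without Cxcl1 had it in 6.76% and 8.22% in the Trpv1-ADC mice and in 6.62% and 12.3% in the CTRL mice, so that 1 mouse of 4 had the higher share with Cxcl1.

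Ccl20 and Ccl22 were rare and came from few cells. By its mean Ccl20 was highest in regulatory T cell-like cells, at 75.0 and 30.2 CPM in the Trpv1-ADC mice and 32.2 and 62.0 CPM in the CTRL mice. That class held 63.4% of its UMIs, and its range overlapped that of Il17a+ CD4 T cell-like cells (0 to 61.3 CPM). Within the class, cluster T6 had 47.1 to 111.4 CPM and cluster T9 had 0 to 6.3 CPM. In the regulatory class 2.36% to 3.51% of thinned cells (3.06% to 5.9% without thinning) and no thinned B cell-like cell had a UMI. There the cell with most Ccl20 held 27.6% to 38.7% of the UMIs. Ccl22 was highest in mature DC-like cells, at 98.0 and 590 CPM in the Trpv1-ADC mice and 421 and 714 CPM in the CTRL mice, in 6 to 26 cells per mouse. That class held 59.7% of Ccl22 UMIs and was too small to test. Both genes entered the fit in 2 classes each.

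**Figure D1:**
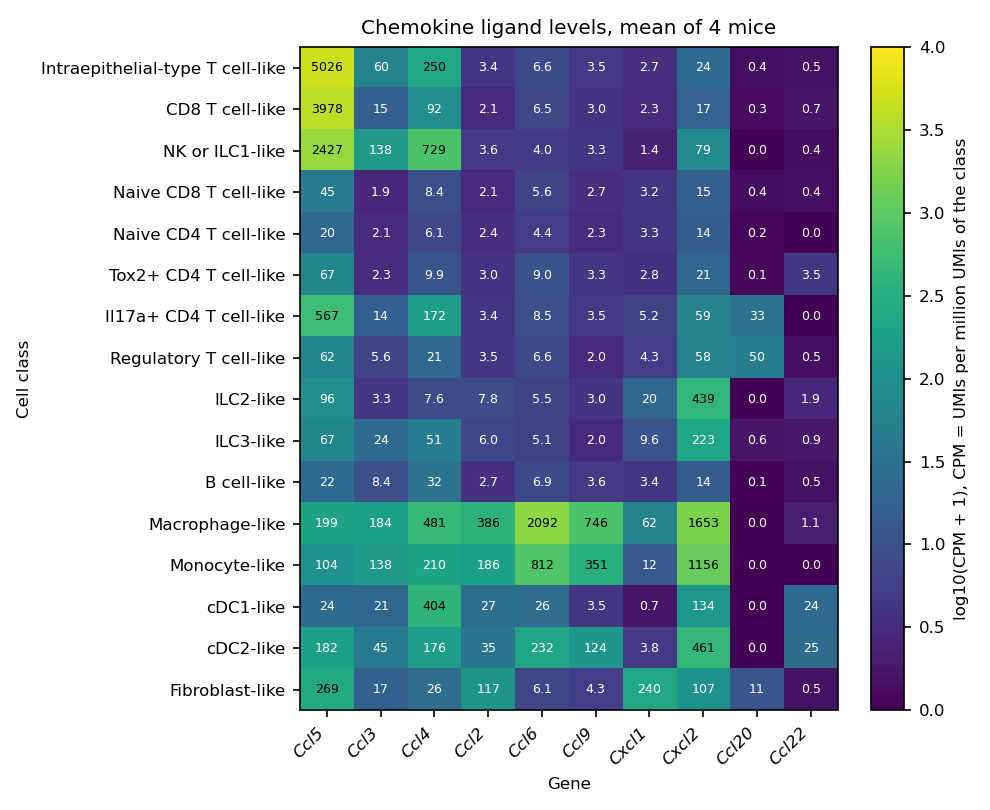
Mean level of each gene over 4 mice in the 16 tested classes; colour is log10(CPM + 1) and each cell prints the CPM. Ccl5 fills the cytotoxic lymphocyte rows (2427 to 5026 CPM), Ccl6, Ccl9 and Cxcl2 the macrophage-like and monocyte-like rows, and Cxcl1 the fibroblast-like row.

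The genes whose levels over the 16 classes were most like a member's were found by Pearson's r over 12263 genes, as a description. The 16 points share their libraries. Ccl3 and Ccl4 were each among the other's 3 most alike genes (r = 0.903), and Ccl9 was among those of Ccl6 (r = 0.982). Ccl5 was followed most closely by Klra7, an NK receptor gene (0.92), and by Heatr9, its neighbour on chromosome 11 (0.89). Ccl22 was nearest to Ccl17 (0.962), the other ligand of Ccr4. For Ccl6 and for Ccl9 the nearest gene was Gpr84 (0.987), a receptor for medium-chain fatty acids of myeloid cells. The nearest gene was Tppp3 for Ccl2 (0.98), Crmp1 for Ccl20 (0.897), 1200007C13Rik for Cxcl1 (0.937) and Gm34455 for Cxcl2 (0.941).

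Whether Trpv1-ADC mice differed from CTRL mice was tested per class with edgeR's quasi-likelihood test on UMIs summed per mouse, fitted over all genes and called at an adjusted p under 0.05. Log2 fold changes are Trpv1-ADC over CTRL with their SE. Of the 160 pairs of a member and a class, 87 entered the fit and 73 had too few UMIs. Of these, 4 pairs passed (4.6% of 87), 2 higher and 2 lower, against 0.985% of all genes over the 16 classes. In 37 of the 87 pairs the 2 mice of one group lay apart from the 2 of the other, against 39.7% of all genes over these classes, so the members are near the background in this. An unadjusted p under 0.05 was found for 18 pairs, against 9.77% of all genes. The 87 differences, of which 49 were negative, ran from -1.47 to 2.17 for Ccl5 (16 classes), -0.50 to 0.91 for Ccl3 (9), -3.56 to 1.07 for Ccl4 (14), -1.30 to 0.34 for Ccl2 (6), -0.48 to 0.67 for Ccl6 (11) and -0.43 to 0.24 for Ccl9 (6). They ran from -1.17 to 0.0018 for Cxcl1 (5), -1.20 to 1.78 for Cxcl2 (16), -2.10 to 0.10 for Ccl20 (2) and 0.0019 to 1.59 for Ccl22 (2). The 4 pairs were Ccl5 in Il17a+ CD4 T cell-like cells, Ccl3 in monocyte-like cells, Ccl5 in naive CD8 T cell-like cells and Cxcl2 in cDC1-like cells. With 2 mice per group an exact permutation of the mice cannot give a p below 0.333, and p values here rest on the spread estimated over all genes.

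Ccl5 rose in Il17a+ CD4 T cell-like cells, a cluster of type 17 helper cells by its markers. It had 784 and 755 CPM in the Trpv1-ADC mice and 399.8 and 330.3 CPM in the CTRL mice, so the groups lay apart. The difference was 1.05 ± 0.18 (adjusted p = 0.0109), where 0.394% of all genes of the class were called. Thinned cells with a Ccl5 UMI made up 42.6% and 29.3% in the Trpv1-ADC mice and 28.8% and 21.9% in the CTRL mice, with overlapping intervals. The shares were 48.9% and 44.1% in the Trpv1-ADC mice and 35.6% and 39.2% in the CTRL mice without thinning. Without the richest cell of each mouse the levels were 655 and 606 CPM in the Trpv1-ADC mice and 355 and 297 CPM in the CTRL mice, still apart. The 10 intraepithelial-type markers, of cells rich in Ccl5, summed to 166 and 201 CPM in the Trpv1-ADC mice and 159.9 and 173 CPM in the CTRL mice, and overlapped. B cell and monocyte markers were lower in the Trpv1-ADC mice (15.1 and 19.9 CPM against 42.6 and 26.6 CPM for B cells) and neutrophil markers higher, and their part was not tested. With doublets removed by hashtag alone the difference was 0.64 (adjusted p = 0.537). It passed in each fit with 1 mouse left out, and those fits called more of all genes of the class. Ccl20, which draws cells with Ccr6, had 0 and 22.7 CPM there in the Trpv1-ADC mice and 61.3 and 48.8 CPM in the CTRL mice. Its difference did not pass (adjusted p = 0.206), and 22 of 23 and 22 of 22 UMIs of the CTRL mice were from 1 cell each.

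Ccl5 fell in naive CD8 T cell-like cells by 1.08 ± 0.17 (adjusted p = 0.0142, 0.112% of all genes called), at levels close to background. The class had 26.5 and 31.9 CPM in the Trpv1-ADC mice and 71.4 and 48.9 CPM in the CTRL mice, which did not overlap. Shares of thinned cells with a UMI were 4.32% and 4.57% in the Trpv1-ADC mice and 6.52% and 4.52% in the CTRL mice, of which 1 mouse lay above the 2.95% to 5.08% of B cell-like cells. Without thinning they were 11.4% and 11.1% in the Trpv1-ADC mice and 15% and 11.9% in the CTRL mice. Without the richest cell of each mouse the levels were 24.2 and 27.4 CPM in the Trpv1-ADC mice and 58.4 and 37.9 CPM in the CTRL mice. In CTRL 1 the 41 cells of cluster T5 had 319.7 CPM, against 26.2 to 51.1 CPM in that cluster of the other mice. Cluster T1 had 26.8 and 32.3 CPM in the Trpv1-ADC mice and 47.5 and 47.9 CPM in the CTRL mice. Cluster T5 made up 39.3% and 52.8% of the class in the Trpv1-ADC mice and 8.33% and 31.1% in the CTRL mice. Without CTRL 1 the call was lost (log2 fold change -0.77), and neither cluster passed alone. It was also lost without robust estimation, with doublets removed by hashtag alone, at the finer clustering, and with ligand genes among the clustering genes. The effect on Ccl5 in Il17a+ CD4 T cell-like minus that in naive CD8 T cell-like cells, tested after both calls were seen, was 2.09 ± 0.24 (adjusted p = 4.86e-05, 0.0828% of all genes called).

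Ccl3 rose in monocyte-like cells, at 207 and 152 CPM in the Trpv1-ADC mice and 105 and 87.3 CPM in the CTRL mice. The groups lay apart by 0.91 ± 0.21 (adjusted p = 0.0323), in a class where 2.35% of all genes were called. Thinned cells with a UMI were 19.4% and 17.4% in the Trpv1-ADC mice and 11% and 15.8% in the CTRL mice, with overlapping intervals, against 0.768% to 1.80% of B cell-like cells. Without thinning they were 34.3% and 30.4% in the Trpv1-ADC mice and 16.9% and 25.3% in the CTRL mice. The make-up of the class moved with it: cluster M5 was 44.8% and 50% of the class in the Trpv1-ADC mice and 17.8% and 8.42% in the CTRL mice. In cluster M5 Ccl3 had 301 and 207 CPM in the Trpv1-ADC mice and 323 and 238 CPM in the CTRL mice, which overlapped. In cluster M1 it had 144 and 88.9 CPM in the Trpv1-ADC mice and 25.1 and 27.1 CPM in the CTRL mice, and passed (2.19, adjusted p = 0.0271). In cluster M3 the difference was -0.29 and did not pass. The 11 macrophage markers summed to 4772 and 4460 CPM in the Trpv1-ADC mice and 3371 and 3285 CPM in the CTRL mice, and the 10 monocyte markers to 5827 and 5513 CPM in the Trpv1-ADC mice and 6124 and 7568 CPM in the CTRL mice. Their part in the result was not tested. The call was lost without CTRL 2 and without Trpv1-ADC 1, with DESeq2, without robust estimation, with HTODemux (another tag rule), and with ligand genes among the clustering genes. The other 6 members tested in the class did not pass, among them Ccl2 (0.34 ± 0.18) and Cxcl2 (0.27 ± 0.12).

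Cxcl2 fell in cDC1-like cells, the dendritic cells that present to CD8 T cells, and Ccl4 in the same cells had the opposite sign. Cxcl2 had 92.9 and 78.7 CPM in the Trpv1-ADC mice and 168 and 196 CPM in the CTRL mice, with no overlap. The difference was -1.12 ± 0.21 (adjusted p = 0.0103), where 1.12% of all genes were called. One cell each gave 66 of 178 and 111 of 253 UMIs in the CTRL mice. Without the richest cell of each mouse the levels were 73.0 and 50.7 CPM in the Trpv1-ADC mice and 108 and 114 CPM in the CTRL mice, which remained apart. The call was lost without Trpv1-ADC 2 and with doublets removed by hashtag alone (adjusted p = 0.106). Ccl4 had 686 and 412 CPM in the Trpv1-ADC mice and 265 and 251 CPM in the CTRL mice, apart by 1.07 ± 0.23 without passing (adjusted p = 0.0575). It passed with DESeq2 and in each fit with 1 mouse left out but that without Trpv1-ADC 1. Of the marker lists summed in this class, those of T cells, B cells, macrophages, monocytes, neutrophils, fibroblasts and epithelial cells overlapped between the groups. The intraepithelial-type list had 994 and 969 CPM in the Trpv1-ADC mice and 919 and 960.5 CPM in the CTRL mice. The 6 T cell markers summed to 80.4 to 239 CPM, so that list cannot stand for T cells there.

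**Figure D2:**
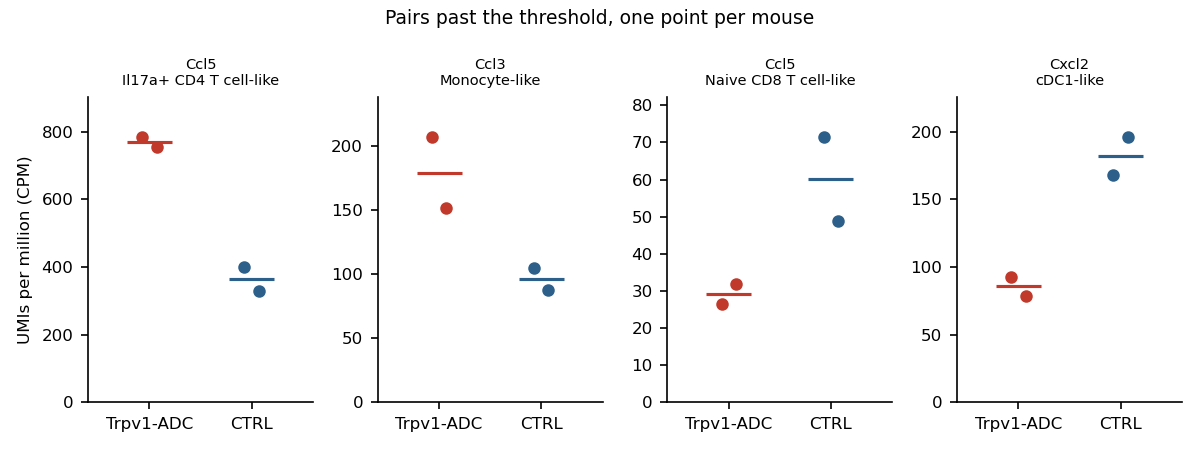
Level in CPM of the 4 pairs that passed, 1 point per mouse with the mean of each group as a bar; each panel has its own axis from 0. Trpv1-ADC points stand above CTRL points for Ccl5 in Il17a+ CD4 T cell-like and Ccl3 in monocyte-like cells and below them in the other panels.

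In macrophage-like cells 7 of the 8 members tested had a negative log2 fold change and none passed, where 0.843% of all genes did. DESeq2, which called 0.984% of all genes there, called none of the 8 either. An unadjusted p under 0.05 was found for Ccl2 and Cxcl1, against 13.1% of all genes. Ccl2 had 309 and 223 CPM in the Trpv1-ADC mice and 602 and 411 CPM in the CTRL mice, apart by -0.96 ± 0.24 (adjusted p = 0.0877). Thinned cells with Ccl2 were 27.8% and 26.2% in the Trpv1-ADC mice and 44.8% and 40.0% in the CTRL mice. Without thinning the shares overlapped, at 50% and 43.2% in the Trpv1-ADC mice and 61.7% and 43.1% in the CTRL mice, and median depths were 6943 and 10070 UMIs in the Trpv1-ADC mice and 6083 and 6988 UMIs in the CTRL mice. Cxcl1 had 29.8 and 50.9 CPM in the Trpv1-ADC mice and 106 and 59.4 CPM in the CTRL mice (-1.17 ± 0.35, adjusted p = 0.149). Cxcl2 had 1528 and 509 CPM in the Trpv1-ADC mice and 2584 and 1993 CPM in the CTRL mice (-1.20 ± 0.61, adjusted p = 0.542). Thinned cells with Cxcl2 were 45.4% and 23.8% in the Trpv1-ADC mice and 71.0% and 60.0% in the CTRL mice, and 54.8% and 36.4% against 74.9% and 60.8% without thinning. For these 3 genes the groups did not overlap. Each passed in at least 1 fit with a mouse left out, but such fits leave 1 mouse in a group. Those fits also called more of all genes of the class. Ccl3, Ccl4, Ccl6 and Ccl9 lay between -0.21 and 0.22, and Ccl5 was at -1.38 ± 1.98, with 128 of 160 UMIs of Trpv1-ADC 1 and 233 of 400 UMIs of CTRL 2 from 1 cell each. In the same class the 10 monocyte markers summed to 3050 and 3548 CPM in the Trpv1-ADC mice and 4567 and 4240 CPM in the CTRL mice. Neutrophil markers had 174 and 177 CPM in the Trpv1-ADC mice and 86.7 and 105 CPM in the CTRL mice, T cell markers were lower in the Trpv1-ADC mice and intraepithelial-type markers higher. The intraepithelial-type list, which holds Fcer1g and Tyrobp, summed to 1994 to 3097 CPM, against 44.2 to 91.75 CPM for the 6 T cell markers. It cannot stand for T cells there. The part of these markers was not tested. Clusters M0, of mixed monocyte and macrophage cells, and M8, with T cell markers, were left out of the macrophage-like and monocyte-like classes. In M0 Ccl2 had 483 and 2149 CPM in 23 and 7 cells of the Trpv1-ADC mice. The CTRL mice had 170.5 and 191 CPM there, in 92 and 37 cells. In M8 Ccl2 had 296 and 80.5 CPM in the Trpv1-ADC mice and 299 and 495 CPM in the CTRL mice. Inside the macrophage-like class, cluster M7 had 290 and 371 CPM of Ccl2 in the Trpv1-ADC mice and 551 and 497 CPM in the CTRL mice. Clusters M6 and M10 were also lower in the Trpv1-ADC mice, while the groups overlapped in M9 and M12. None of these clusters had at least 20 cells in every mouse, so none was tested alone.

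Whether the 2 myeloid classes differed in the effect was tested in 1 fit with the mouse as a block, in which 0.16% of all genes passed. None of the 8 members did. The effect in macrophage-like minus that in monocyte-like cells was -1.30 ± 0.32 for Ccl2 (adjusted p = 0.163), -1.64 ± 0.39 for Cxcl2 (0.288) and -0.92 ± 0.29 for Ccl3 (0.329), with unadjusted p values of 7.35e-04, 0.00279 and 0.00437. Ccl2 and Cxcl2 passed without Trpv1-ADC 1, and Cxcl1 passed without Trpv1-ADC 2 (-4.42) but was at 4.21 without Trpv1-ADC 1.

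**Figure D3:**
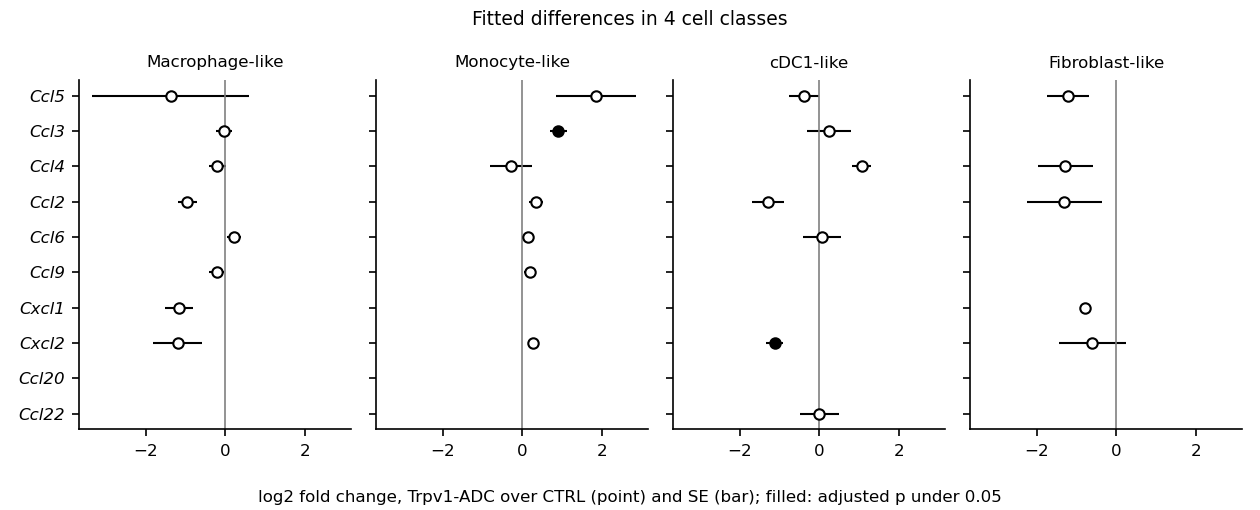
Log2 fold change, Trpv1-ADC over CTRL, with its SE for each member in the fit of 4 classes; filled points passed. In the macrophage-like panel Ccl2, Cxcl1 and Cxcl2 lie between -1.20 and -0.96, and in the monocyte-like panel Ccl2 and Cxcl2 lie at 0.34 and 0.27.

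Cxcl1 in fibroblast-like cells, its main source, had 199 and 161 CPM in the Trpv1-ADC mice and 279.8 and 321 CPM in the CTRL mice. The groups lay apart by -0.78 ± 0.14 without passing (adjusted p = 0.192, 0.0186% of all genes called). Thinned cells with it were 18.7% and 18.9% in the Trpv1-ADC mice and 26.1% and 25.7% in the CTRL mice, and 40.4% and 36.8% against 46.2% and 50% without thinning. It passed without CTRL 1 and without CTRL 2, in fits that called more of all genes of the class. Ccl2 in these cells had 69.6 and 65.6 CPM in the Trpv1-ADC mice and 71.1 and 262 CPM in the CTRL mice, where 1 cell of CTRL 2 gave 151 of its 401 UMIs. All 5 members tested had negative log2 fold changes. Ccl2 was at -1.30 ± 0.94, Ccl5 at -1.21 ± 0.53, Ccl4 at -1.28 ± 0.69 and Cxcl2 at -0.60 ± 0.85, and none passed. Macrophage markers summed to 414 and 565 CPM there in the Trpv1-ADC mice and 565.4 and 584 CPM in the CTRL mice, and monocyte markers to 1457 and 1460 CPM in the Trpv1-ADC mice and 1545 and 1529 CPM in the CTRL mice. Intraepithelial-type markers summed to 294 and 237 CPM in the Trpv1-ADC mice and 312 and 426 CPM in the CTRL mice. Neutrophil markers were higher in the Trpv1-ADC mice, while T cell, B cell, epithelial and fibroblast markers overlapped, and the part of these lists was not tested. The sums were not split by gene, and the monocyte list holds Fn1 and Thbs1, so they cannot show carry-over from other cells.

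Cxcl2 in ILC2-like cells, innate lymphocytes of type 2 responses, had 249 and 303 CPM in the Trpv1-ADC mice and 613 and 592 CPM in the CTRL mice. The groups lay apart by -1.12 ± 0.20 (adjusted p = 0.0627, 0.108% of all genes called), without passing. It passed without CTRL 1, without CTRL 2 and without Trpv1-ADC 2, in fits that called more of all genes of the class. Monocyte markers summed to 80.3 and 131 CPM there in the Trpv1-ADC mice and 164.5 and 140 CPM in the CTRL mice, and macrophage markers to 153 and 178.5 CPM in the Trpv1-ADC mice and 95.7 and 82.2 CPM in the CTRL mice. Epithelial markers also lay apart, the other 5 lists overlapped, and their part was not tested. Ccl22 in cDC2-like cells had 35 and 39.7 CPM in the Trpv1-ADC mice and 12.1 and 12.5 CPM in the CTRL mice (1.59 ± 0.36, adjusted p = 0.244, 0.0285% called). There 12 of 22 and 20 of 28 UMIs of the Trpv1-ADC mice came from 1 cell each, and without those cells the levels were 16.3 and 11.7 CPM. Ccl5 in regulatory T cell-like cells had 31.1 and 40.9 CPM in the Trpv1-ADC mice and 114 and 63.2 CPM in the CTRL mice (-1.29 ± 0.28, adjusted p = 0.127, 0.383% called). With each mouse but CTRL 1 left out Ccl5 passed, in fits that called more of all genes of the class. The 10 intraepithelial-type markers summed to 289 and 189 CPM there in the Trpv1-ADC mice and 297 and 321 CPM in the CTRL mice, and their part was not tested. Ccl20 in the same class overlapped between the groups (0.10 ± 0.66).

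**Figure D4:**
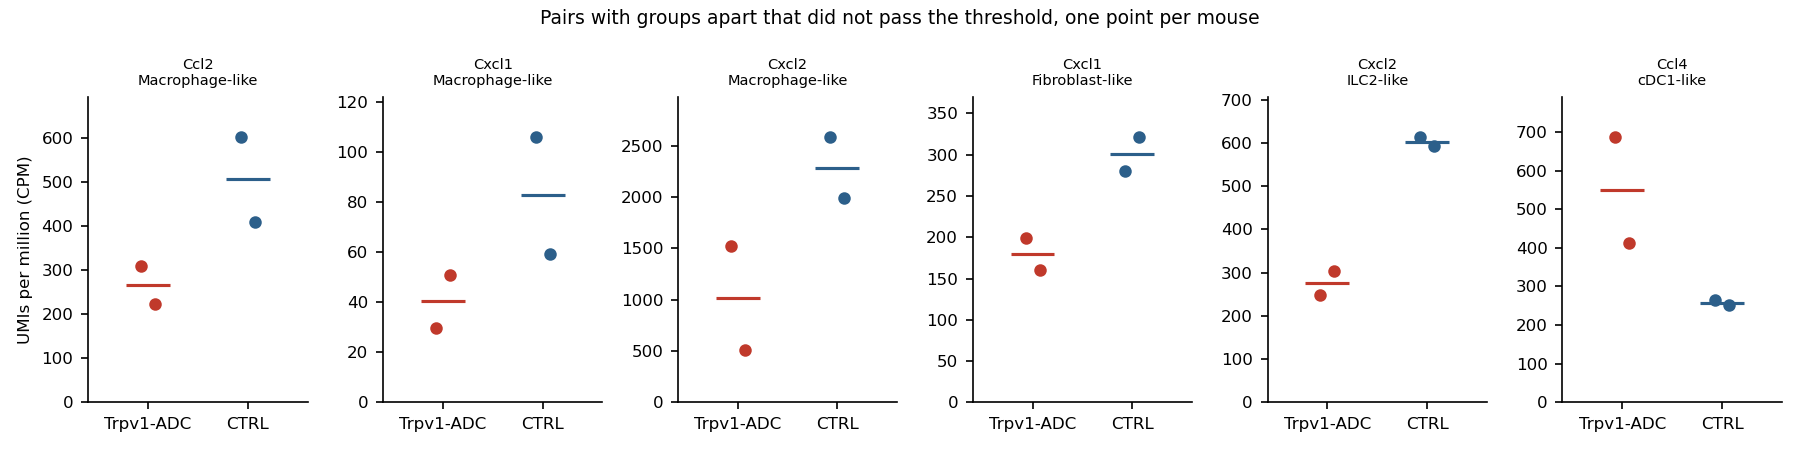
Level in CPM, 1 point per mouse with the group mean as a bar, for 6 pairs picked from those that did not pass although the groups did not overlap. Each panel has its own axis from 0. Ccl4 in cDC1-like cells is the pair shown in which the Trpv1-ADC points are higher. Pairs not shown lay apart in both directions, among them Ccl22 in cDC2-like cells (Trpv1-ADC higher) and Ccl5 in regulatory T cell-like cells (Trpv1-ADC lower).

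In the classes where Ccl5 was strongest its differences did not pass. They were -0.27 ± 0.15 in intraepithelial-type cells, where 8.23% of all genes were called, -0.13 ± 0.10 in CD8 T cell-like cells (0.165% called; Ccl3 at 0.49 ± 0.36 and Ccl4 at 0.74 ± 0.72) and 0.07 ± 0.36 in NK or ILC1-like cells (0.133% called). No member passed in B cell-like (0.123% of all genes called), ILC3-like (0.463%), naive CD4 T cell-like (0.146%) or Tox2+ CD4 T cell-like cells (0.0208%). In ILC3-like cells Ccl4 had the most negative difference of the 87 pairs (-3.56 ± 1.11, adjusted p = 0.465). In NK or ILC1-like cells Cxcl2 had 197 and 47.9 CPM in the Trpv1-ADC mice and 35.9 and 34.9 CPM in the CTRL mice, and 1 cell gave 90 of the 121 UMIs of Trpv1-ADC 1.

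Summed over all cells, all 10 members had negative log2 fold changes, from -1.09 ± 0.23 for Cxcl1 to -0.05 ± 0.59 for Ccl22, and none passed in edgeR, where 0.245% of all genes did. An unadjusted p under 0.05 was found for 5 (18.2% of all genes), and DESeq2, which called 3.72% of all genes, called Ccl2, Ccl5 and Cxcl1. Ccl5 had 497 and 608 CPM in the Trpv1-ADC mice and 929 and 1002 CPM in the CTRL mice (-0.79 ± 0.11, adjusted p = 0.0698). Ccl2 had 26.3 and 17 CPM in the Trpv1-ADC mice and 53.1 and 39.8 CPM in the CTRL mice (-1.09 ± 0.27, adjusted p = 0.174). The classes that hold these transcripts made up other shares of the cells. Intraepithelial-type cells were 6.32% and 4.61% of cells in the Trpv1-ADC mice and 10.1% and 13.9% in the CTRL mice. With the levels of each mouse weighted by 1 mix of classes for all, the ratio of Trpv1-ADC to CTRL means was 0.884 for Ccl5, against 0.572 as sorted. It was 1.05 against 0.731 for Ccl3, 1.11 against 0.781 for Ccl4, and 1.01 against 0.757 for Ccl6. It stayed further below 1 for Ccl2 (0.589 against 0.466), Cxcl1 (0.642 against 0.465) and Cxcl2 (0.706 against 0.548), in which the groups did not overlap at the common mix either. The groups stayed apart for Ccl5 as well, at 646 and 754.5 CPM in the Trpv1-ADC mice and 814 and 771 CPM in the CTRL mice. How many of all genes lay apart at the common mix was not counted, while 39.7% did over the 16 classes. The members therefore cannot be set against all genes in this. For Ccl20 (0.663 against 0.6), Ccl9 (0.836 against 0.657) and Ccl22 (0.946 against 0.955) the groups overlapped at the common mix. That mix does not level clusters within a class: cluster T8, the one richer in Ccl5, was 27.5% and 33% of intraepithelial-type cells in the Trpv1-ADC mice and 37.7% and 40.3% in the CTRL mice.

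**Figure D5:**
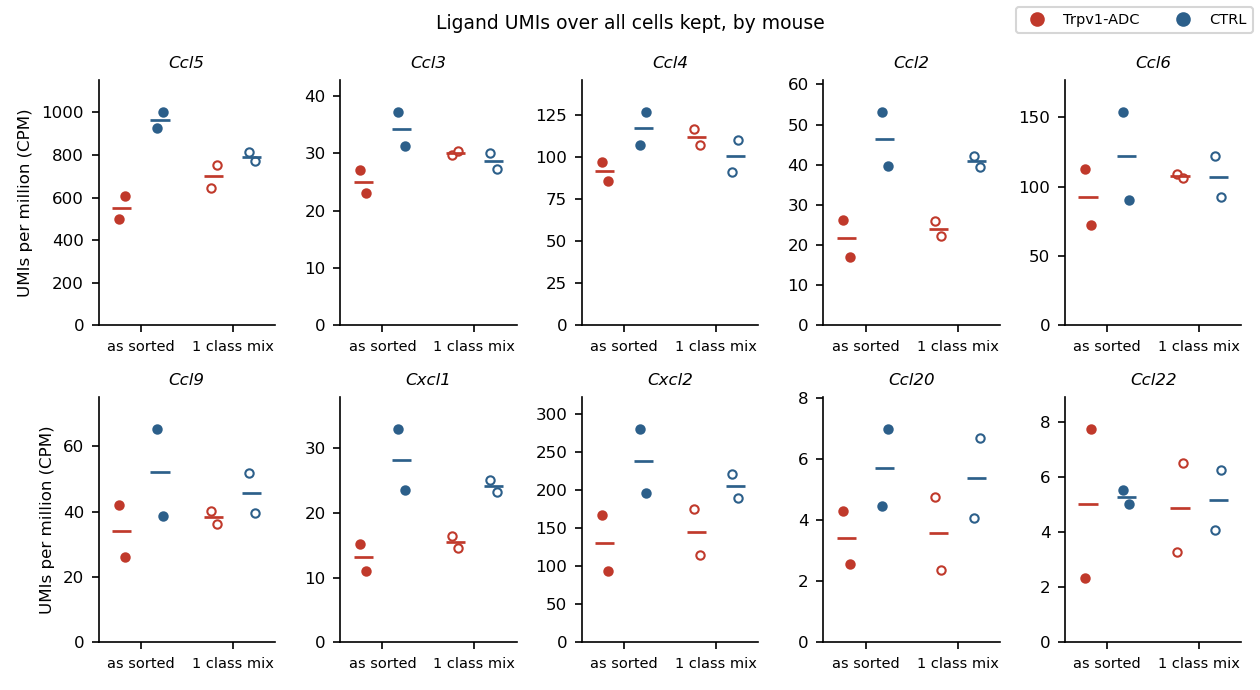
Level of each member over all cells in CPM, 1 point per mouse with the group mean as a bar, as sorted (filled) and with every mouse given the same mix of classes (open). At the common mix the Trpv1-ADC and CTRL points of Ccl2, Cxcl1 and Cxcl2 stay apart, as do those of Ccl5, and those of Ccl6 overlap. The share of all genes apart at that mix was not counted.

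Other genes of the pathway were read from 3 lists. Of 28 other chemokine ligands, Cxcl10, which draws cells with Cxcr3, rose in Il17a+ CD4 T cell-like cells (1.41 ± 0.28, adjusted p = 0.0306; 1 of 2 tested), and Xcl1, which draws cDC1, fell in Tox2+ CD4 T cell-like cells (-2.97 ± 0.40, adjusted p = 0.014; 1 of 9 tested). No other ligand of the list passed in any class. Of 23 receptors, Ccr7, which guides cells to lymph nodes, fell in cDC1-like (-1.55 ± 0.22) and intraepithelial-type cells (-0.90 ± 0.19), Ccrl2 fell in macrophage-like cells (-1.27 ± 0.21), and Ccr2, the receptor of Ccl2, fell in regulatory T cell-like cells (-0.75 ± 0.13). No receptor rose. Of 24 NF-kB and immediate early genes, 6 fell and none rose in macrophage-like cells, with a median over the list of -0.76 and of 0.0027 over all genes. In that class 0.843% of all genes were called, of which 54 fell and 12 rose. The 6 of the list included Nfkb1, an NF-kB subunit (-1.41 ± 0.21, adjusted p = 0.0214), Rel, another (-1.42 ± 0.24, adjusted p = 0.0214), and Tnfaip3, a brake on NF-kB (-1.33 ± 0.23, adjusted p = 0.0214). These calls depend on the processing. Without robust estimation 1 of all 7825 genes of the class passed, so at most 1 of the 6 held. With ligand genes among the clustering genes 8 of 6120 passed, against 66 of 7825 with RLE scaling and 77 with DESeq2. In monocyte-like cells, where 2.35% of all genes were called, 3 of 23 rose, among them Atf3 (0.83 ± 0.13, adjusted p = 0.00223) and Jun (1.26 ± 0.18, adjusted p = 0.00503), and 2 fell, among them Rel (-0.80 ± 0.13, adjusted p = 0.0047). The list's median there was -0.02, against 0.00882 over all genes. In intraepithelial-type cells, where 8.23% of all genes were called, 1 of 22 rose (Jun, 1.00 ± 0.10). In the same cells 4 fell, among them Tnfaip3 (-0.96 ± 0.17) and Nfkb2 (-0.79 ± 0.18). In cDC1-like cells, where 1.12% were called, Jun rose (1.74 ± 0.19) and Junb fell (-0.61 ± 0.12), of 22 tested. Atf3 (1.06 ± 0.18) and Zfp36 (0.67 ± 0.13) rose in CD8 T cell-like cells (22 tested, 0.165% of all genes called). Jun rose in NK or ILC1-like cells (1.225 ± 0.16, 20 tested, 0.133% called). Nfkbid fell in ILC3-like cells (-1.25 ± 0.25, 20 tested, 0.463% called). Nfkbiz fell in regulatory T cell-like cells (-0.52 ± 0.10, 22 tested, 0.383% called). No gene of this list passed in the remaining classes. Over all cells none of the 3 lists had a gene that passed.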

How the data were processed

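UMI counts per gene and cell, and counts of hashtag tags per cell, were used as deposited by the authors. Per the submitters' processing notes, Cell Ranger, Seurat and build mm10 were used, with no versions. The labels name both 3' and 5' chemistry. The members and gene lists were chosen with earlier results of these data known. Cells with at least 500 UMIs, 200 genes and at most 10% mitochondrial UMIs (22729 of 23063) were given to 1 mouse where its tag had at least 10 counts and 3 times the next (19571). Scrublet removed 2052 of these as doublets, leaving 17519. Cells were clustered in scanpy 1.11.5 (2000 variable genes without 50 ligand genes, 30 components, 15 neighbours, Leiden resolution 1; 26 clusters) and classes were named from markers. Sums of UMIs over the cells of a class, 1 per mouse, entered edgeR 4.0.16 (filterByExpr, TMM, robust quasi-likelihood, Benjamini-Hochberg over all genes of a class, threshold 0.05). DESeq2 1.42.0, RLE scaling, no filter, other tag and cell rules, other clusterings, each mouse left out and a replicate block were alternatives. Both tests of a difference between classes used the mouse as a block. SE is the log2 fold change over the root of edgeR's F. Intervals for shares are exact binomial at 95% and cover counting error only. All members are accounted for in the classes where they entered the fit, those not named by counts and ranges. From each other list, at most 3 genes per class that passed are named, by the lowest unadjusted p, and for each member the most alike of its 3 nearest genes. Motifs were searched on both strands of RefSeq promoters of GRCm38.p6. The scripts were tested on simulated data. All mice were read in 1 run, so p values measure the spread between mice.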

Additional observations from a re-analysis of the deposited data

Results flagged for a closer look

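Ccl5 differed between Trpv1-ADC and CTRL mice in opposite directions in 2 T cell classes, and the difference between those effects passed its own test. The effect in Il17a+ CD4 T cell-like cells (1.05 on the log2 scale) minus that in naive CD8 T cell-like cells (-1.08) was 2.09 ± 0.24 (edgeR's quasi-likelihood test with the mouse as a block, adjusted p = 4.86e-05). Within each class the 2 Trpv1-ADC mice lay on one side of the 2 CTRL mice. This pair of classes was picked because Ccl5 passed in both, so the test is not independent of that choice. With each mouse left out in turn the difference was between 1.91 and 2.22 and passed. The call in each class on its own was lost in both with doublets removed by hashtag alone, and the call in naive CD8 T cell-like cells in 7 of 16 alternatives, among them without CTRL 1. The difference itself was not refitted with that doublet rule. In naive CD8 T cell-like cells the share of cells with a Ccl5 UMI was close to that in B cell-like cells, as given above.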

How the results depend on the processing

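The count of member and class pairs that passed was 4. It was 17 with no filter on low counts, 13 with a replicate block, 2 with the hashtag rule alone, and 14 to 18 with 1 mouse left out. Over all genes of the 16 classes, 0.985% passed, and 1.13% with no filter, 1.97% with the block, 0.876% with the hashtag rule alone and 1.2% to 2.68% with 1 mouse left out. The count was 3 to 5 under the other 7 alternatives. With 1 mouse left out, 3 of the 4 pairs were still among those that passed, whichever mouse it was. Over all cells no member passed, but 2 did with no filter, 3 with DESeq2, 5 with the replicate block (3.2%, 3.72% and 2.52% of all genes, against 0.245%), and 0 to 1 with 1 mouse left out, Ccl5 without Trpv1-ADC 2. For the difference between macrophage-like and monocyte-like cells, 0 to 2 members passed with 1 mouse left out. A lone mouse of a group is assumed to vary like the others. Deviations of same-numbered mice correlated at -0.2 to 0.111 over the classes and at -0.103 over all cells, so the numbers were not taken to pair the mice. With the pairing crossed, chosen after seeing the data, 0 members passed over all cells. The direction turned round in 3 values: Ccl3 (-0.29) and Ccl6 (-1.44) in monocyte-like cluster M3 alone, and Ccl22 in cDC1-like cells with ligand genes among the clustering genes (-2.73). The cause was not tested. Of 622 alternative values for 43 pairs, 506 kept direction and side of the threshold, 16 lost the call, 61 gained one and 36 without a call changed sign. Depth limited Ccl20 and Ccl22, which had few UMIs.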
